A study of Mus musculus with 4 samples.

Results

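The Mll3/4 complex subunits are 6 genes, Kmt2c, Kmt2d, Kdm6a, Ncoa6, Paxip1 and Pagr1a, taken by symbol from the 32285 genes of the deposited feature lists. No measured value entered this choice. The cells were Kit+ mouse bone marrow cells carrying the CD45.2 allele, collected 10 weeks after transplantation, in which transcripts and barcoded surface antibodies were counted together with 10x Genomics 3′ chemistry. There were 4 groups with 1 library each: control (its library was named wt), Mll3 deleted, Mll4 deleted and Mll3/4 deleted. The strain, the age and sex of donors and hosts, the deleted exons, the driver and timing of the deletion, and the number of animals behind a library are not given in the sources used here. With 1 library per group, each comparison below is between libraries and no test between conditions could be made.

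Mll3 and Mll4, encoded by Kmt2c and Kmt2d, are large histone methyltransferases that place the single methyl mark on lysine 4 of histone H3, chiefly at enhancers. Each works in a COMPASS-like complex built on a core (Wdr5, Rbbp5, Ash2l and Dpy30) that other histone H3 lysine 4 methyltransferases share, together with subunits that the other complexes lack. These are Kdm6a (also called Utx), an X-linked demethylase of lysine 27 of histone H3; Ncoa6, a coactivator of nuclear receptors; and Paxip1 (Ptip) with its partner Pagr1a (Pa1), which also act outside the complex. Paxip1 is known for its part in immunoglobulin class switching in B cells, and Kmt2c, Kmt2d and Kdm6a are often mutated in blood cancers.

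In the GENCODE vM21 annotation of GRCm38, Kmt2c (ENSMUSG00000038056) lies on the minus strand at chr5:25271798-25498783. Paxip1 (ENSMUSG00000002221) is on the same chromosome and strand at chr5:27740080-27791691. Kmt2d (ENSMUSG00000048154) lies at chr15:98831669-98871204, minus strand, and Kdm6a (ENSMUSG00000037369) at chrX:18162575-18279936, plus strand. Ncoa6 (ENSMUSG00000038369) is at chr2:155390656-155473894 and Pagr1a (ENSMUSG00000030680) at chr7:127015033-127017352, both on the minus strand. Pagr1a alone overlaps other genes in its last kilobase, namely the same-strand genes Pagr1b and Gm42742. Pagr1b was not among the counted genes, so the Pagr1a counts are uncertain.

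Because 3′ counting reads the end of a transcript, near-identical ends could mix the counts of related genes. The pairs at issue are Kmt2c with its relative Kmt2d, and the X-linked Kdm6a with its Y-linked relative Uty (chrY:1096861-1245759, minus strand). Below are 120 coding bases near the end of each, 5′ to 3′ on the gene's own strand, from the GRCm38 sequence and GENCODE vM21. Each stretch is spliced from more than 1 exon, and capitals mark the bases that differ from the other gene of its pair.
Kmt2c (ENSMUST00000045291, chr5:25273666-25275654): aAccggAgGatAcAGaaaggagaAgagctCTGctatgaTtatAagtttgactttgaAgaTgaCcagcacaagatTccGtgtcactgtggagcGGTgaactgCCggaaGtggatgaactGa
Kmt2d (ENSMUST00000178486, chr15:98834500-98834742): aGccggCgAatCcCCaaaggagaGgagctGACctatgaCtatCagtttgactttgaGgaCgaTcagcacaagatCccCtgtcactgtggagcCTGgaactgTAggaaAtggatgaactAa
Kdm6a (ENSMUST00000052368, chrX:18277445-18278626): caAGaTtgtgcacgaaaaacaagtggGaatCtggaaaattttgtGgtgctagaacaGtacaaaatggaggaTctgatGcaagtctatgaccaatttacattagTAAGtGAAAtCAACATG
Uty (ENSMUST00000069309, chrY:1098556-1099683): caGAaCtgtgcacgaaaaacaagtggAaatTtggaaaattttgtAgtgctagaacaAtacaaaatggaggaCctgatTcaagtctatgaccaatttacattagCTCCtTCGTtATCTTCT
In each pair, 96 of 120 bases (80%) were identical. For Kdm6a and Uty this share was set by the choice of stretch and is no measure of how alike their ends are. Theirs is the stretch nearest the coding end of Kdm6a at which at least 80% of bases matched. It leaves 81 coding bases of Kdm6a and 9 of Uty after it. The stretches of Kmt2c and Kmt2d end at the stop codon. Over the whole transcripts, the longest identical run was 37 bases for Kmt2c and Kmt2d and 61 bases for Kdm6a and Uty. In the last 500 bases of the annotated transcript of each gene that ends furthest downstream, it was 10 bases in both pairs.

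The deposited barcodes left 5350 to 7146 cells per library after filtering, at a median UMI count per cell of 9965 to 16963.5, except for 5142 under the Mll4 label. A UMI is 1 counted transcript molecule. The 4 libraries shared 104 barcodes in more than 1 library, with 9 to 24 per pair. Surface CD117, the Kit protein, lay above the control's threshold in 4164 of 7146 control cells, 3826 of 5860 Mll3-labelled, 2382 of 5350 Mll4-labelled and 5535 of 6917 Mll3/4-labelled cells, so every library also held cells below it. Cells were clustered without the 6 genes and clusters were named from marker genes. The share of B-cell progenitor-like cells was 6.59% in the control and 6.35%, 2.69% and 95.95% in the Mll3-, Mll4- and Mll3/4-labelled libraries. Those of the Mll3/4-labelled library lay almost wholly in clusters of their own, the largest with 4502 cells, while those of the control and the Mll3-labelled library lay in 2 others. The Mll4-labelled library held 50.3% neutrophil-like cells against 24.9% for the control, and most lay in 2 clusters (1920 and 712 cells) that held 36 and 117 control cells. Where cells lie in different clusters, class and library cannot be fully told apart.

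Levels are given as CPM, the UMIs of a gene scaled to a common total of gene UMIs, with an exact 95% Poisson interval, and differences as log2 ratios of 2 levels with a 95% interval. All intervals cover counting error only. Levels are not compared between genes, since 3′ counts depend on each gene's transcript ends. A gene is called higher or lower where its log2 ratio was at least 0.5 in size with at least 20 UMIs in either library. All 6 members had at least 20 UMIs in each library. Since libraries differ in their mix of cells, each ratio was also taken class-matched: the UMIs observed were divided by those expected if every cell class of the library had the control's level.

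Kmt2c was at 47.9 CPM in the control (46.9 to 49.1, 7365 UMIs) and 27.2 CPM under the Mll3 label (26.3 to 28.1, 3701 UMIs). It was at 59.2 CPM under the Mll4 label (56.6 to 61.8, 1939 UMIs) and 34.8 CPM under the Mll3/4 label (33.5 to 36.1, 2700 UMIs). The libraries whose labels name Mll3 were thus the lowest and their intervals lay below that of the control. As log2 ratios to control, the Kmt2c differences were -0.82 (-0.87 to -0.76), 0.30 (0.23 to 0.38) and -0.46 (-0.53 to -0.40) for the Mll3, Mll4 and Mll3/4 labels. Class-matched, these were -0.78 (-0.84 to -0.72), 0.13 (0.05 to 0.21) and -0.38 (-0.62 to -0.15). The small value of the Mll4-labelled library has no settled direction, since trimmed mean (TMM) scaling turned it to -0.03.

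Kmt2d was at 25.8 CPM in the control (25 to 26.6, 3957 UMIs) and 21.6 CPM under the Mll3 label (20.8 to 22.4, 2936 UMIs). It was at 25 CPM under the Mll4 label (23.3 to 26.8, 819 UMIs) and 24.7 CPM under the Mll3/4 label (23.7 to 25.9, 1922 UMIs). Over all cells the lowest level was thus in the library labelled for the other gene, at a log2 ratio of -0.25 (-0.32 to -0.19), and the ratios where Mll4 is named were -0.04 (-0.15 to 0.06) and -0.06 (-0.14 to 0.02). With this scaling the targeted gene did not go with the label over all cells, and libraries are therefore named by their labels throughout. Over the processing alternatives, the Kmt2d ratio over all cells under the Mll4 label ranged from -0.24 to -0.003. Class-matched, Kmt2d was lower in all 3, with log2 ratios of -0.21 (-0.28 to -0.14) in the Mll3-labelled, -0.29 (-0.41 to -0.18) in the Mll4-labelled and -0.70 (-0.96 to -0.45) in the Mll3/4-labelled library. A 3′ count outside a deleted exon need not fall, so neither gene's level shows how complete a deletion was.

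Kdm6a was at 33.4 CPM in the control (32.5 to 34.4, 5137 UMIs) and 32.3 CPM under the Mll3 label (31.3 to 33.3, 4392 UMIs). It was at 21.9 CPM under the Mll4 label (20.4 to 23.6, 719 UMIs) and 51.8 CPM under the Mll3/4 label (50.2 to 53.4, 4024 UMIs). The 4 levels fell into 3 tiers, with the overlapping intervals of the control and the Mll3-labelled library in the middle. The log2 ratios were -0.05 (-0.11 to 0.01), -0.61 (-0.72 to -0.50) and 0.63 (0.57 to 0.69). Class matching kept the low value of the Mll4-labelled library, at -0.52 (-0.64 to -0.40), while that of the Mll3/4-labelled library became -0.15 (-0.36 to 0.06). In the control itself, Kdm6a was at 58.1 CPM in B-cell progenitor-like cells, the class that made up most of the Mll3/4-labelled library.

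Ncoa6 was at 22.3, 21.5, 25.8 and 20.4 CPM in the control, Mll3-, Mll4- and Mll3/4-labelled libraries, from 3429, 2929, 845 and 1585 UMIs. Its class-matched log2 ratios were -0.00 (-0.07 to 0.07), 0.00 (-0.11 to 0.12) and 0.01 (-0.34 to 0.36), the smallest of any member. Paxip1 was at 29.9, 27.3, 24.6 and 27.8 CPM, from 4596, 3713, 807 and 2155 UMIs. Its class-matched ratios were -0.15 (-0.21 to -0.08), -0.19 (-0.31 to -0.08) and -0.04 (-0.34 to 0.25). Pagr1a was close to the limit of detection, at 0.81, 0.63, 0.73 and 1.15 CPM from 125, 86, 24 and 89 UMIs. All 3 of its class-matched intervals spanned 0, the widest from -1.53 to 1.33. The overlapping Gm42742 had 26 UMIs in the Mll3/4-labelled library and 1 or 2 in each other library, and whether the counts of the pair are mixed was not tested.

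**Figure D1:**
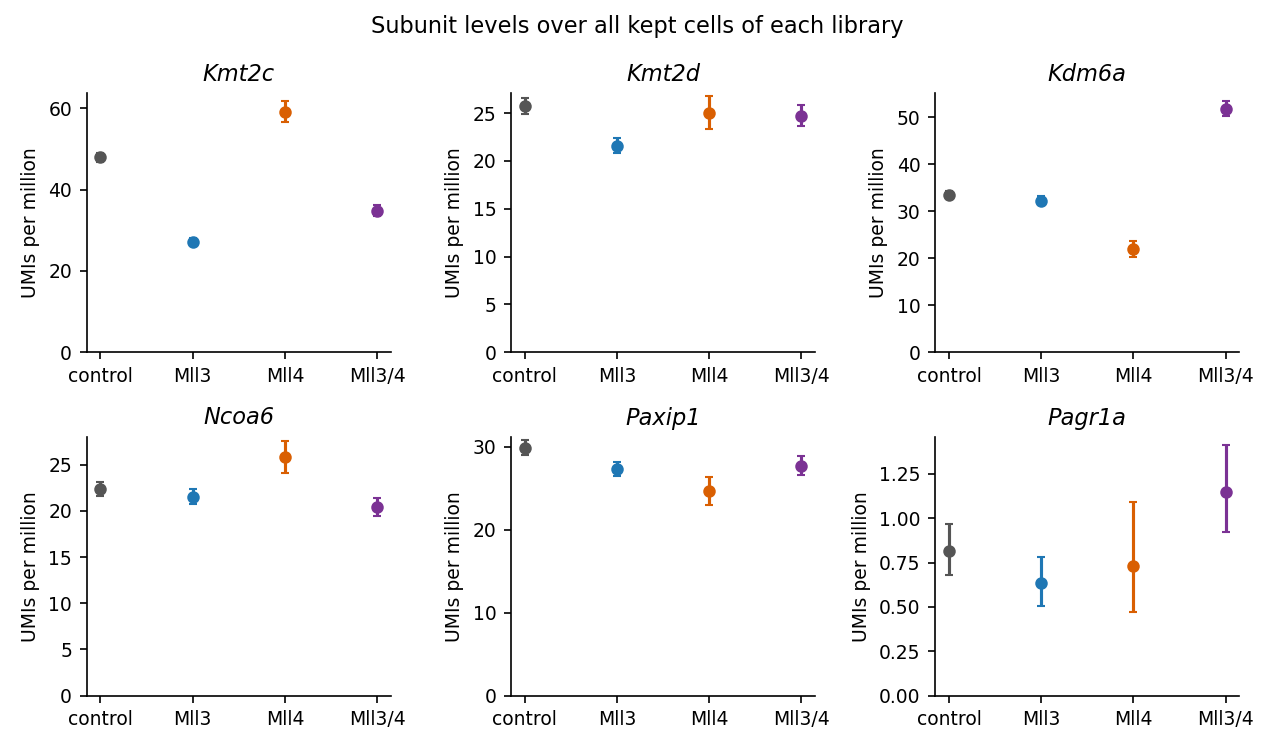
Level of each subunit in CPM over all kept cells of the 4 libraries, 1 panel per gene with its own axis; points are levels and bars exact 95% Poisson intervals. Kmt2c was lowest in the Mll3-labelled library at 27.2 CPM, and Kdm6a ran from 21.9 CPM in the Mll4-labelled to 51.8 CPM in the Mll3/4-labelled library.

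Over all cells 1 of 6 members was called in each library. This was Kmt2c, lower, in the Mll3-labelled library, where 15.2% of 14550 genes were called in either direction. In the Mll4-labelled library it was Kdm6a, lower, where 47.1% of 14452 genes were called. In the Mll3/4-labelled library it was Kdm6a, higher, where 62.3% of 15158 genes were called. Class-matched, again 1 of 6 was called in each: Kmt2c (12.9% of 14526 genes called), Kdm6a (37.9% of 14413 genes) and Kmt2d (52.3% of 15137 genes), all lower. Each of these counts was near or below what the share of all genes called gives for 6 genes. The members' median class-matched ratio was -0.18 in the Mll3-labelled library against -0.06 over all genes, -0.24 against 0.16 in the Mll4-labelled library, and -0.12 against -0.00 in the Mll3/4-labelled library. Pagr1a enters these members' medians, and without it they were -0.15, -0.19 and -0.15 in the same order. TMM scaling moved the all-gene median of the Mll4-labelled library from 0.16 to -0.03. It moved that of the Mll3/4-labelled library from -0.00 to 0.12.

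**Figure D2:**
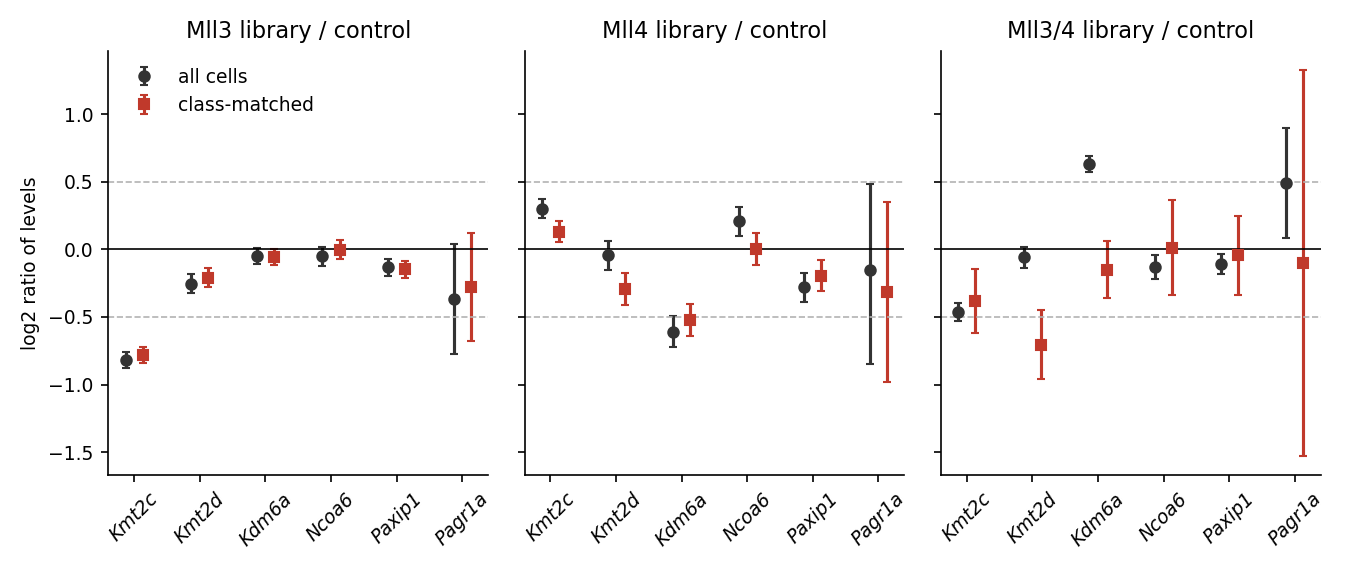
Log2 ratio to control of each subunit in the 3 labelled libraries, over all cells (black circles) and class-matched (red squares); bars are 95% intervals and dashed lines mark the size at which a gene was called. Kmt2c in the Mll3-labelled library was low both ways (-0.82 and -0.78), while Kmt2d in the Mll3/4-labelled library was near 0 over all cells and -0.70 class-matched.

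In the control, the subunits ranged over the larger cell classes by less than most genes. Over 7 classes of at least 150 control cells, the log2 ratio of the highest to the lowest level was 1.08 for Kmt2c, 1.002 for Kmt2d, 1.22 for Kdm6a, 1.04 for Ncoa6 and 0.57 for Paxip1. The median of 7762 genes was 1.65, with quartiles of 1.08 and 2.54. Over these 7 classes Paxip1 was thus the most even of the 5, and only 4.16% of those genes had a smaller range. The basophil/mast-like class, with 118 control cells, was left out of the range. Paxip1 was lowest there, at 13 CPM (7.43 to 21.1), so its evenness holds for the larger classes only.

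Kmt2c stood highest in T/NK/innate lymphoid-like (89.8 CPM, 27 UMIs) and basophil/mast-like control cells (88.6 CPM, 72.7 to 106.8). Megakaryocyte-like (63.7 CPM), neutrophil-like (63.4 CPM) and HSC/MPP-like cells (58.7 CPM), the class of stem cells and multipotent progenitors, came next with overlapping intervals. B-cell progenitor-like (45.3 CPM), monocyte/macrophage progenitor-like (41.0 CPM) and erythroid progenitor-like cells (39.1 CPM) followed, again overlapping, and granulocyte progenitor-like cells were lowest at 30.2 CPM (27.1 to 33.5). Kmt2d had a different order. B-cell progenitor-like (40.2 CPM, 33.6 to 47.8), basophil/mast-like (38.2 CPM) and neutrophil-like cells (37.7 CPM) were highest, each class overlapped the next down to granulocyte progenitor-like cells (24.4 CPM), and erythroid progenitor-like cells lay apart below them at 20.1 CPM (19.1 to 21.1).

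Kdm6a was highest in basophil/mast-like (65.0 CPM, 51.5 to 80.9) and B-cell progenitor-like control cells (58.1 CPM, 50.1 to 67.1). From there each class overlapped the next down to erythroid progenitor-like cells (31.5 CPM, 30.3 to 32.8), and granulocyte progenitor-like (25.7 CPM) and neutrophil-like cells (25 CPM) were lowest. The neutrophil-like class was therefore near the top for Kmt2c and Kmt2d and at the bottom for Kdm6a. Ncoa6 was highest in basophil/mast-like (38.2 CPM) and neutrophil-like cells (32.3 CPM, 30.1 to 34.6) and lowest in granulocyte progenitor-like cells (15.7 CPM, 13.5 to 18.2). Paxip1 was highest in erythroid progenitor-like cells (33.5 CPM, 32.2 to 34.8) and lowest in basophil/mast-like cells (13 CPM, 7.43 to 21.1), so that it stood opposite to the other 4 in the basophil/mast-like class. Pagr1a had 0 to 56 UMIs per class and no neighbours in its order had separate intervals.

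Surface antibodies split the control cells without use of the clusters. In CD11b-high control cells (1898 cells), Kmt2d was at 36.6 CPM against 23.5 CPM in the rest, a log2 difference of 0.64 (0.53 to 0.74). Ncoa6 was at 31.0 against 20.6 CPM there, a difference of 0.59 (0.48 to 0.71), and Kmt2c at 62.2 against 45 CPM, 0.47 (0.39 to 0.55). Kdm6a went the other way, at 26.1 against 34.9 CPM and -0.42 (-0.54 to -0.30). In B220-high control cells (535 cells), B220 being a B-lineage form of CD45, Kdm6a was at 53.5 against 32.9 CPM, a difference of 0.70 (0.50 to 0.90), and Kmt2d at 35.1 against 25.5 CPM, 0.46 (0.21 to 0.70). Kmt2c did not differ there beyond its interval (-0.21 to 0.20). In Sca1-high cells (1013 cells), where stem cells are found, Kdm6a was at 48.6 against 31.9 CPM and Kmt2c at 66.1 against 46.1 CPM, differences of 0.61 (0.49 to 0.72) and 0.52 (0.42 to 0.62).

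The low Kmt2c level of the Mll3-labelled library was found in every class that could be measured. Of 8 classes with at least 50 cells and enough UMIs in both libraries, 8 had an interval below 0, from -0.36 in neutrophil-like to -0.95 in megakaryocyte-like cells. Erythroid progenitor-like cells held 20.5 CPM against 39.1 CPM in the control, megakaryocyte-like cells 33.0 against 63.7 CPM, and HSC/MPP-like cells 35.2 against 58.7 CPM, a log2 ratio of -0.74 (-0.88 to -0.60). Neutrophil-like cells were the least different, at 49.5 against 63.4 CPM. Mature B cell-like cells could not be compared, with 37 control cells, and held 111 CPM (85.7 to 142) in the Mll3-labelled library from 236 cells. Counted by cluster instead, Kmt2c was lower in 16 of 16 clusters, from -1.07 to -0.35. Kmt2d in the same library was lower by its interval in 4 of 7 classes, from -0.65 in B-cell progenitor-like cells to -0.06 in HSC/MPP-like cells. Its levels were 25.6 against 40.2 CPM in the first of these and 26.1 against 27.2 CPM in the second. For Kdm6a in this library 0 of 8 classes had an interval apart from 0.

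The Mll4-labelled library was the shallowest per cell, and Kmt2d there was counted from few UMIs in some classes. With the main scaling, it had an interval below 0 in 3 of 7 classes. These were megakaryocyte-like (16.3 against 27.4 CPM, 27 UMIs), monocyte/macrophage progenitor-like (20.2 against 30.4 CPM) and neutrophil-like cells (31.0 against 37.7 CPM). In B-cell progenitor-like cells it was at 16.8 CPM from 6 UMIs (6.16 to 36.5). In erythroid progenitor-like cells it was at 19.5 against 20.1 CPM, a ratio of -0.04 (-0.30 to 0.21). That value depends on the scaling and does not show an unchanged level. TMM factors lower every ratio of these erythroid cells alike. For Paxip1 they moved it from -0.51 to -0.78, a larger shift than the upper bound of Kmt2d. By cluster, with the main scaling, Kmt2d was lower in 8 of 9, of which 2 by their interval. With the main scaling, Kmt2c in this library had an interval above 0 in 2 of 7 classes and below 0 in none. These were basophil/mast-like cells, at 146 CPM (120 to 177) against 88.6 CPM, and granulocyte progenitor-like cells, at 44.9 against 30.2 CPM. The ratio in granulocyte progenitor-like cells was 0.57 (0.23 to 0.91). TMM scaling lowers all ratios of that class and library alike. It took that of Paxip1 from 0.43 to 0.12, a larger shift than the lower bound of Kmt2c.

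**Figure D3:**
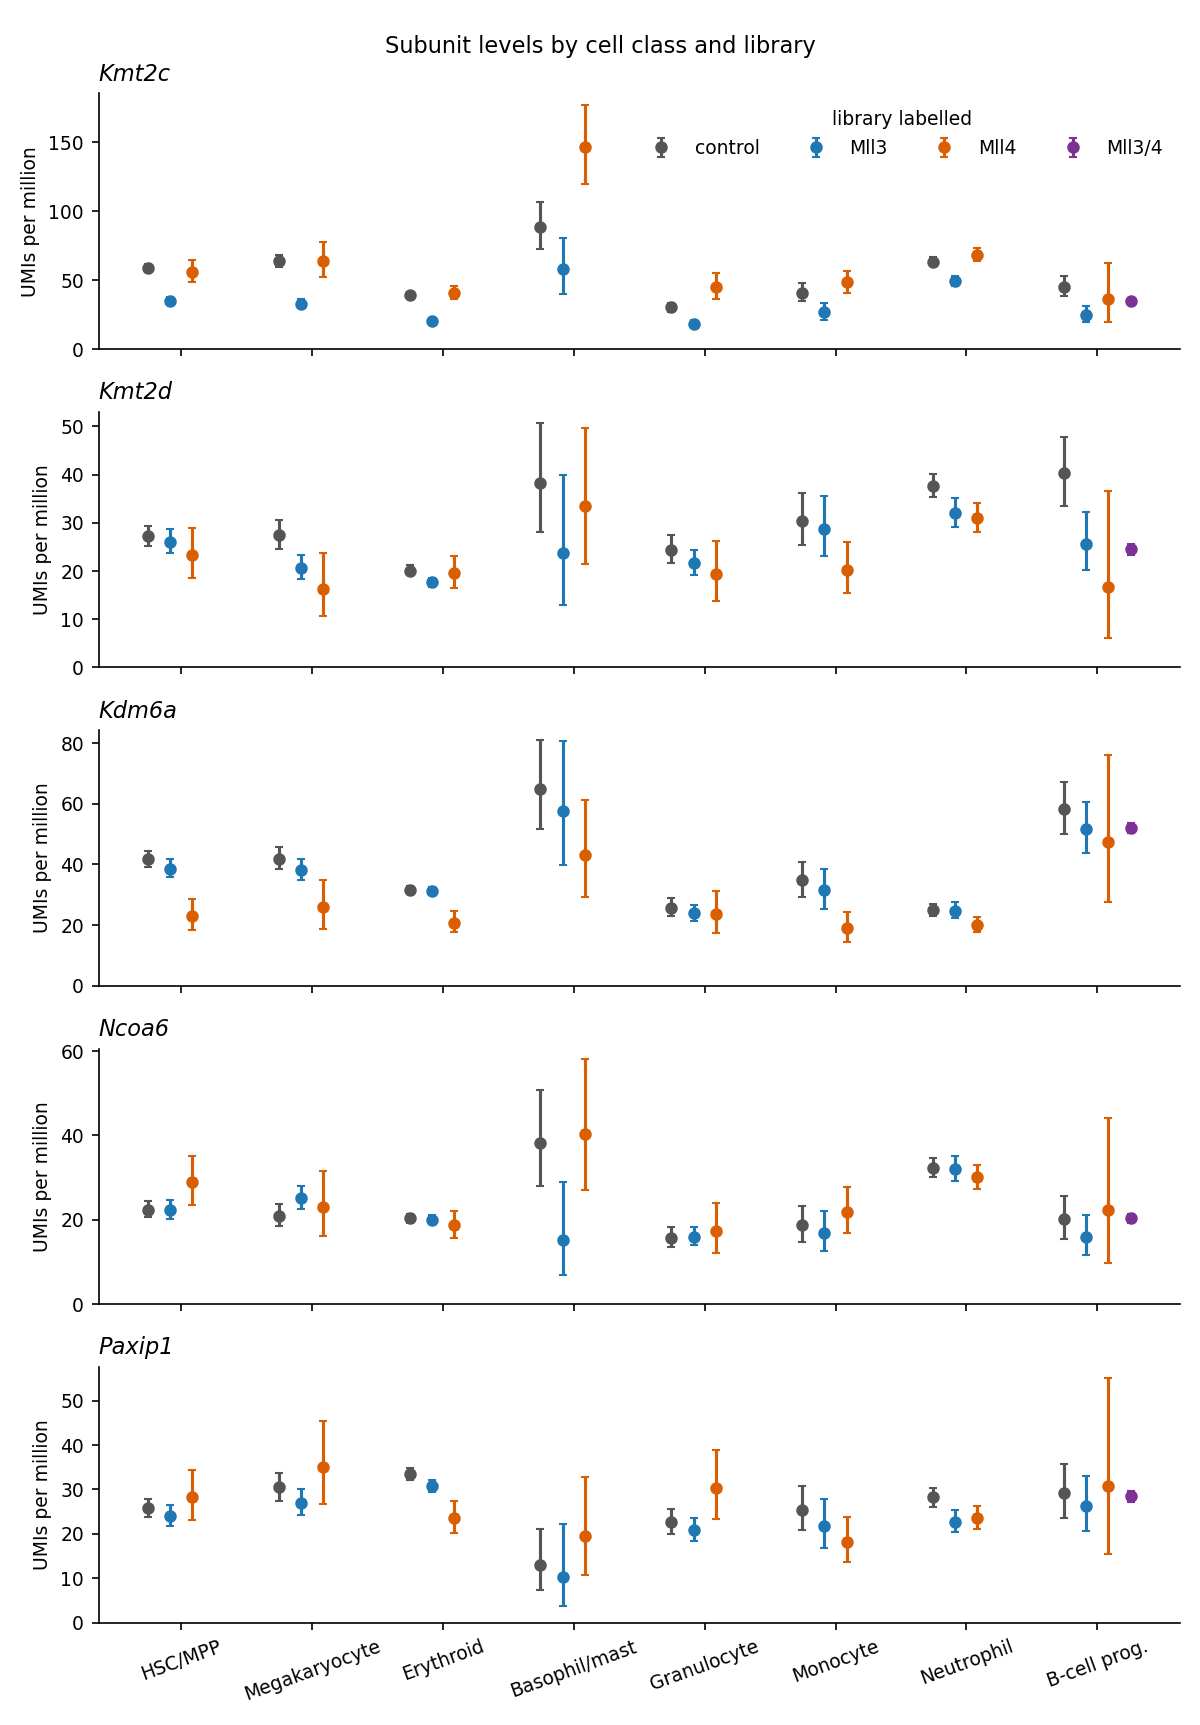
Level of 5 subunits in CPM by cell class and library, for classes with at least 50 cells in a library; points are levels, bars exact 95% Poisson intervals, and each panel has its own axis. The Mll3-labelled points of Kmt2c lie below the control in all 8 classes, and the Mll4-labelled points of Kdm6a run lowest in monocyte/macrophage progenitor-like cells, at 18.9 CPM.

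Kdm6a was below the control in the Mll4-labelled library in all 7 classes measured, by its interval in 5. Monocyte/macrophage progenitor-like cells held 18.9 against 34.7 CPM (-0.88), HSC/MPP-like cells 23.0 against 41.7 CPM (-0.86), megakaryocyte-like cells 26.0 against 41.9 CPM (-0.69) and erythroid progenitor-like cells 20.8 against 31.5 CPM (-0.60). Granulocyte progenitor-like cells were the least different, at 23.7 against 25.7 CPM (-0.12). By cluster, Kdm6a was lower in 11 of 11, of which 7 by their interval, from -0.97 to -0.11.

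Sex-linked genes separated the same library from the others. Xist, the RNA of the inactive X chromosome, was at 989.9, 954.8 and 1839 CPM in the control, Mll3- and Mll3/4-labelled libraries, and at 0.52 CPM under the Mll4 label. Uty, the Y-linked relative of Kdm6a, was at 17.6 CPM there (16.2 to 19.1, 578 UMIs), with 1, 0 and 1 UMIs of it in the control, Mll3- and Mll3/4-labelled libraries. Kdm5d, Eif2s3y and Ddx3y, also Y-linked, were at 11.8, 65.7 and 32.3 CPM there, with 0 to 2 UMIs in each other library. The X-linked relatives of these genes had class-matched log2 ratios of -0.15 (-0.27 to -0.03) for Kdm5c, -0.28 (-0.35 to -0.22) for Eif2s3x and 0.15 (0.10 to 0.20) for Ddx3x, beside -0.52 for Kdm6a. With the main scaling Kdm6a was thus the lowest of the 4. The class-matched median of all genes in that library was 0.16 with the main scaling and -0.03 with TMM factors. The value of Ddx3x lay close to the first of these medians, and the sizes of all 4 ratios depend on the scaling. The sex of the cells and the Mll4 label cannot be told apart in these libraries.

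**Figure D4:**
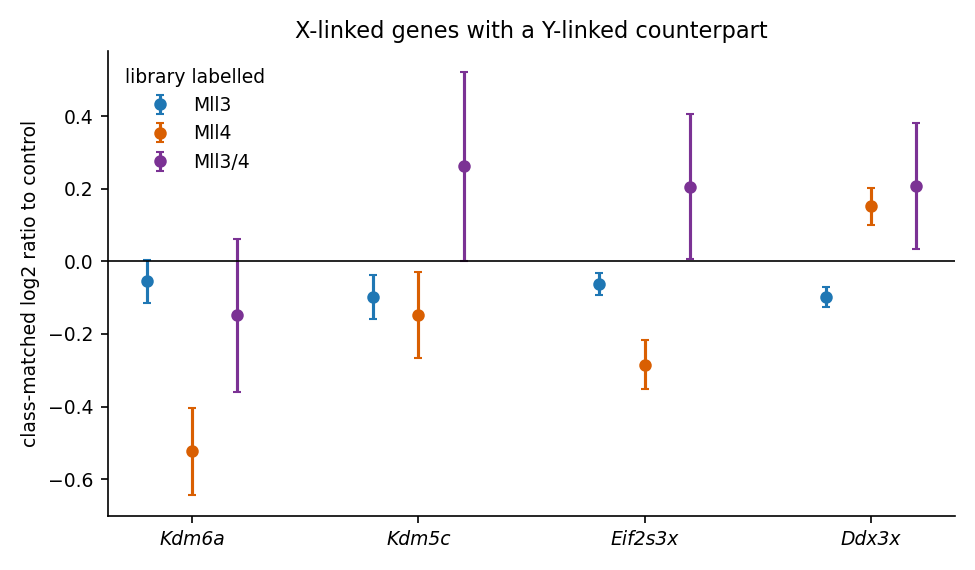
Class-matched log2 ratio to control, with 95% intervals, of Kdm6a and 3 other X-linked genes that have a Y-linked relative. With the main scaling, Kdm6a in the Mll4-labelled library was at -0.52, below Eif2s3x at -0.28, Kdm5c at -0.15 and Ddx3x at 0.15.

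B-cell progenitor-like cells are the class in which the Mll3/4-labelled library can be compared, with 471 control, 372 Mll3-labelled and 6637 Mll3/4-labelled cells and a median of 4389, 6454 and 9877 UMIs per cell. Kmt2d was at 40.2 CPM in the control, 25.6 CPM (20.1 to 32.2) in the Mll3-labelled and 24.5 CPM (23.4 to 25.7) in the Mll3/4-labelled library. The log2 ratios to control were -0.65 (-1.08 to -0.23) and -0.72 (-0.97 to -0.45), and that of the Mll3/4-labelled to the Mll3-labelled library was -0.06 (-0.40 to 0.29). Both labelled libraries were thus below the control, and the interval between them spans 0. Kmt2c was at 45.3 CPM in the control (38.2 to 53.3), 24.9 CPM (19.5 to 31.4) in the Mll3-labelled and 34.8 CPM (33.5 to 36.2) in the Mll3/4-labelled library. Its ratios to control were -0.86 (-1.29 to -0.44) and -0.38 (-0.62 to -0.13). For Kmt2c the Mll3/4-labelled library lay above the Mll3-labelled one by 0.48 (0.14 to 0.84). Over all processing alternatives, the ratio between these libraries ranged from -0.61 to 0.04 for Kmt2d and from 0.09 to 0.57 for Kmt2c. Both low ends lie outside the intervals given, so the sizes of these ratios depend on the processing.

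The other subunits of this class differed less. Kdm6a was at 58.1, 51.6 and 52.1 CPM in the control, Mll3- and Mll3/4-labelled libraries, with ratios to control of -0.17 (-0.49 to 0.15) and -0.16 (-0.37 to 0.06). Paxip1 was at 29.2, 26.3 and 28.4 CPM and Ncoa6 at 20.1, 15.9 and 20.4 CPM, with every interval of a ratio spanning 0. Pagr1a had 4 and 3 UMIs in the control and the Mll3-labelled cells, and its ratios to the 86 UMIs of the Mll3/4-labelled library had wide intervals (-1.50 to 1.81 and -1.42 to 2.49). In all, 2 of 5 measured members were called lower between the Mll3-labelled library and the control (Kmt2c and Kmt2d), where 16.2% of 8870 genes were called. Between the Mll3/4-labelled library and the control it was 1 of 6 (Kmt2d), where 47.9% of 13408 genes were called. Between the Mll3/4- and Mll3-labelled libraries it was 0 of 6, where 50.1% of 13377 genes were called. Median ratios of the members were -0.34, -0.13 and 0.15, against -0.09, -0.03 and 0.06 over all genes. Pagr1a enters the last pair of members' medians, and without it they were -0.16 and 0.11. With other cell filters or clusterings, between 1553 and 5118 Mll3/4-labelled cells kept this name, and the Kmt2c ratio of that library to control ranged from -0.90 to -0.44 and that of Kmt2d from -1.18 to -0.77. Over all alternatives the ranges were -0.90 to -0.25 and -1.18 to -0.50.

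Cells of this class differ in whether they divide, and the subunits differed with it. In the control, non-dividing cells (292) held more Kmt2c, 56.9 CPM (44.9 to 71.1), than dividing cells (149), 33.6 CPM (25.6 to 43.2), and more Kdm6a, 76.1 against 42.5 CPM. Kmt2d was even, at 39.9 and 39.7 CPM. In the Mll3/4-labelled library (5121 non-dividing and 1443 dividing cells), Kmt2c was at 37.6 (35.9 to 39.3) and 28.0 CPM (25.8 to 30.3), and Kmt2d at 26.9 (25.5 to 28.4) and 18.3 CPM (16.5 to 20.2). Paxip1 was the one subunit higher in dividing cells of that library, at 39.5 CPM (36.9 to 42.3) against 23.7 CPM (22.4 to 25.1). In the Mll3-labelled library (186 and 167 cells), Kmt2c was at 27.0 and 21.9 CPM and Kdm6a at 67.6 and 42.2 CPM. The share of dividing cells was 33.8% in the control, 47.3% in the Mll3-labelled and 22.0% in the Mll3/4-labelled library. Between the Mll3/4-labelled library and the control, the Kmt2d ratio was -1.12 among dividing and -0.57 among non-dividing cells. That of Kmt2c was -0.26 and -0.60. The intervals of the Kmt2c levels of dividing cells overlap between these libraries, so its -0.26 has no settled direction. These ratios rest on few control cells, and whether the genes differ with division was not tested.

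Clusters of this class carried the same spread. The mostly non-dividing cluster of the control and the Mll3-labelled library (316 and 219 cells) had Kmt2c at 64.2 and 30.5 CPM, Kmt2d at 44.4 and 31.4 CPM and Kdm6a at 80.1 and 70.9 CPM. Their mostly dividing cluster (154 and 153 cells) had Kmt2c at 32.8 and 21.4 CPM, Kmt2d at 37.5 and 22.0 CPM and Kdm6a at 43.8 and 39.5 CPM. Of the Mll3/4-labelled clusters, the largest (4502 cells) had Kmt2c at 37.4, Kmt2d at 27.1 and Kdm6a at 52.5 CPM. A smaller non-dividing cluster of 577 cells was higher in all 3, at 49.6, 37.0 and 68.2 CPM. One of 217 cells with a median of 3653 UMIs was lowest in all 3, at 14.6, 10.1 and 19.1 CPM, and also in Ncoa6 and Paxip1, at 9.0 CPM each.

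HSC/MPP-like cells (1567 control, 1114 Mll3-labelled and 586 Mll4-labelled) had too few members in the Mll3/4-labelled library (12 cells) for a level. Kmt2c was called lower in the Mll3-labelled library, as given above, and Kdm6a in the Mll4-labelled library, at -0.86 (-1.21 to -0.53). Kmt2d was at 27.2, 26.1 and 23.2 CPM in this class, with ratios of -0.06 (-0.23 to 0.12) and -0.22 (-0.57 to 0.11). Ncoa6 was at 22.4, 22.4 and 28.9 CPM, and its ratio in the Mll4-labelled library was 0.37 (0.05 to 0.67). The median ratio of all genes in this class of that library was 0.18, and -0.06 with TMM factors. TMM scaling thus lowers the ratios of Ncoa6 and Kmt2d there, and both depend on the scaling. By the call rule 2 of 6 members were called in each library, against 10.4% of 12141 genes in the Mll3-labelled and 38.4% of 12048 genes in the Mll4-labelled library. In both the second was Pagr1a, lower in the Mll3-labelled (-1.16, from 7 UMIs) and higher in the Mll4-labelled library (0.91, from 6 UMIs) against 22 UMIs in the control, and both of its intervals spanned 0.

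Each library carried 2 hashtags, antibody barcodes that mark separately stained cells. What each hashtag marks is not given in the sources used here, so they are described and not used as replicates. Kmt2c in the Mll3-labelled library was at 20.8 CPM (19.8 to 21.8, 3119 cells) under hashtag 1 and 35.2 CPM (33.6 to 36.8, 2496 cells) under hashtag 2. In the control the corresponding levels were 49.3 and 46.5 CPM, in the Mll4-labelled library 59.7 and 57.1 CPM, and in the Mll3/4-labelled library 34.6 and 34.6 CPM. The class-matched log2 difference of hashtag 1 to hashtag 2 was 0.04 (-0.03 to 0.11) in the control and -0.68 (-0.77 to -0.58), 0.18 (0.04 to 0.33) and 0.00 (-0.11 to 0.12) for the Mll3, Mll4 and Mll3/4 labels. The low Kmt2c level of the Mll3-labelled library was therefore not even between its hashtags. Against the control, hashtag 1 had a class-matched ratio of -1.15 (-1.22 to -1.07) and hashtag 2 one of -0.42 (-0.49 to -0.35), so that hashtag 2 alone would not be called.

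The hashtag difference of Kmt2c was largest in megakaryocyte-like cells, at 25.2 and 46.8 CPM, a log2 difference of -0.89 (-1.17 to -0.61). In neutrophil-like cells it was 32.7 and 59.5 CPM, -0.86 (-1.12 to -0.61), so that hashtag 2 overlapped the control's 63.4 CPM (60.3 to 66.7) in its interval (54.4 to 64.9). Erythroid progenitor-like cells had 15.7 and 26.6 CPM, and HSC/MPP-like cells 31.1 and 41.9 CPM, -0.43 (-0.67 to -0.19). Granulocyte progenitor-like cells differed by -0.45 (-0.84 to -0.06). In B-cell progenitor-like cells the levels were 25.1 (18.2 to 33.8) and 25 CPM (16.6 to 36.1), from 43 and 28 UMIs, and the interval of the difference (-0.71 to 0.75) takes in the values of the granulocyte progenitor-like and HSC/MPP-like cells. Neutrophil-like cells were 11.7% of the cells under hashtag 1 and 25.1% under hashtag 2 in that library, and 25.5% and 24.2% in the control. The order of classes given above, with neutrophil-like cells the least different in Kmt2c, thus also carries the mix of hashtags in the Mll3-labelled library. The class-matched hashtag differences of the other well-counted subunits in that library were -0.08 for Kmt2d, 0.17 for Kdm6a, 0.04 for Ncoa6 and 0.16 for Paxip1. By the call rule, 2 of 6 members were called there, Kmt2c and Pagr1a (-0.56, -1.20 to 0.09, from 40 and 41 UMIs), where 8.05% of 13261 genes were called. In the control, the Mll4-labelled and the Mll3/4-labelled library 0 members were called between hashtags, where 5%, 6.2% and 13.3% of genes were called.

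**Figure D5:**
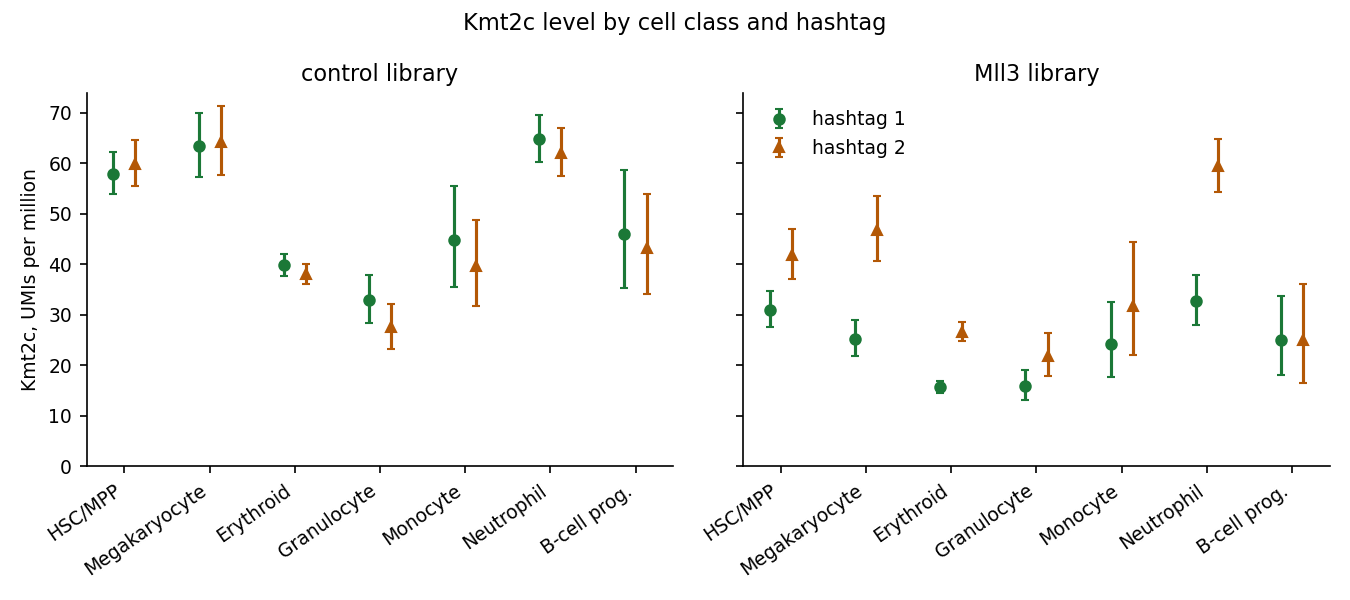
Kmt2c level in CPM by cell class for the cells of each hashtag, in the control (left) and the Mll3-labelled library (right); bars are exact 95% Poisson intervals. The hashtags overlap in every control class, while in the Mll3-labelled library hashtag 1 lies lower, with an interval of the difference below 0, in megakaryocyte-like, erythroid progenitor-like, neutrophil-like, granulocyte progenitor-like and HSC/MPP-like cells, and the B-cell progenitor-like points lie side by side with wide bars.

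Over 27 pairs of class and library with at least 50 cells, which share libraries and depth, Kmt2c levels went with those of Ncoa6 (Pearson r = 0.72 on log2(CPM + 1)) and Kmt2d (r = 0.58). Kmt2d and Kdm6a had r = 0.47, and Paxip1 had r between -0.22 and -0.01 with the others. Among 8160 genes with a mean of at least 10 CPM, the genes most like Kmt2c were Ep300 (r = 0.85), Crtc2 (0.84) and Fam13b (0.82). Those most like Kmt2d were Tnrc6c (0.80), Rnf111 (0.79) and Dazap2 (0.74), and those most like Kdm6a were Rsbn1l (0.88), Zfp644 (0.88) and Zfp646 (0.87). For Ncoa6 they were Ubr2 (0.77), Mob1a (0.75) and Abcc5 (0.75), for Paxip1 Eme1 (0.81), Atad2 (0.78) and Cenpn (0.76), and for Pagr1a, at its low counts, Golph3 (0.60), Mcpt4 (0.58) and Gatad1 (0.57). Levels also went with log2 UMIs per cell, at r = -0.62 for Kmt2c, -0.42 for Ncoa6, -0.34 for Kmt2d, -0.25 for Kdm6a and 0.09 for Paxip1, and the part of depth in these likenesses was not tested.

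The partners of the subunits were read from lists of the shared core (4 genes), other COMPASS genes (10), histone demethylases (6), coactivators (7) and Paxip1 partners (2). In the Mll3-labelled library 0 of the 28 measured list genes were called over all cells or class-matched, where 15.2% and 12.9% of all genes were called. Class-matched in the Mll4-labelled library, 4 of 29 were called, where 37.9% of all genes were. Wdr5 of the core was higher (0.63), as were Cxxc1 (0.83) and Wdr82 (0.71) of the other COMPASS genes and the Y-linked Uty among the demethylases, and 0 were lower. Over all cells 6 of 29 were called in that library, where 47.1% of all genes were: Dpy30 (-0.72), Psip1 (-0.60) and Kdm1a (-0.77) were lower, and Hcfc2 (0.58), Cxxc1 (0.51) and Uty were higher. The Mll3/4-labelled library had 10 of 28 list genes higher and 2 lower over all cells, a smaller share than the 62.3% of all genes called there. Higher were Kmt2a (0.95), Men1 (0.95), Kdm1a (0.66), Kdm5a (0.58), Kdm5b (0.56), Kdm5c (0.57), Crebbp (1.13), Ncoa1 (0.84), Ncoa2 (0.97) and Trp53bp1 (0.91), and lower were Wdr5 (-1.02) and Dpy30 (-0.77).

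Class-matched, 1 of those 12 was still called in the Mll3/4-labelled library, the nuclear receptor coactivator Ncoa1, higher by 0.82, where 52.3% of all genes were called. Ncoa1 was also the single list gene called within B-cell progenitor-like cells against the control, at 0.83, where 47.9% of all genes were called. These cells are 95.95% of that library, so both values share nearly all their counts. Against the Mll3-labelled library in the same cells, Ncoa1 (1.03), Kdm5b (0.97), Kdm6b (0.72), Trp53bp1 (0.62) and Kdm1a (0.55) were higher and Dpy30 was lower (-0.62), where 50.1% of all genes were called. Cxxc1 (-0.56) and Kdm5b (-0.58) were lower in the Mll3-labelled library than in the control there, where 16.2% of all genes were called. These list counts were below the shares of all genes called. The lists' medians class-matched were -0.02 (core), -0.06 (other COMPASS), -0.10 (demethylases), -0.02 (coactivators) and -0.05 (Paxip1 partners) in the Mll3-labelled library, beside -0.18 for the 6 subunits and -0.06 for all genes. In the same order they were 0.18, 0.15, 0.00, 0.05 and 0.15 in the Mll4-labelled library, beside -0.24 for the subunits and 0.16 for all genes. Those of the Mll3/4-labelled library were -0.29, -0.09, 0.28, -0.06 and 0.37, so that the core lay below the -0.12 of the subunits. Without Pagr1a the subunits' medians were -0.15, -0.19 and -0.15 in the Mll3-, Mll4- and Mll3/4-labelled libraries.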

How the data were processed

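The authors deposited raw UMI counts per gene and per antibody for each barcode, made with Cell Ranger 6.1.2 on mm10, per the submitters' processing notes; the counts are not normalized. Gene positions and sequences come from GENCODE vM21 on GRCm38, where 32158 of the 32285 feature IDs occur. A barcode counted as a cell with 500 genes or more, 1000 gene UMIs or more and no more than 10% of UMIs from mitochondrial genes. Doublets were removed by their Scrublet score at a rate of 0.8% for each 1000 barcodes, which took out 5.29% to 8.01% of cells. The kept cells were clustered in scanpy 1.11.5 (Python 3.11.15, 2000 variable genes, 30 principal components, 15 neighbours, Leiden resolution 1) without the 6 subunits, Xist, Y-linked and mitochondrial genes. A cluster was named from the class with the highest marker score, and left unnamed where its 10 leading genes held more markers of another class. The sources tie no cell to an animal, and free RNA was not corrected for.

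Counts were summed per library, class or hashtag and divided by the gene UMIs of the same cells. Ratios carry exact conditional binomial intervals, and class-matched ratios, over classes with at least 50 control cells, approximate ones. A hashtag or antibody threshold was set where the densities of 2 Gaussian components fitted to log counts cross. Cells were called dividing with at least 3 of 10 division genes detected after thinning to 2000 UMIs. edgeR 4.0.16 in R 4.3.3 gave TMM factors as an alternative scaling and no test was run with it. The ratio scripts were tested on simulated data. Named were the 6 subunits, list genes called over all cells or in B-cell progenitor-like cells, 8 sex-linked genes and the 3 genes most like each subunit; list genes called class-matched alone and the genes overlapping Pagr1a were named after their values were seen. The members, lists and call rule were chosen with earlier results of these data known. Of the deposited columns, 0 belonged to no sample.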

Additional observations from a re-analysis of the deposited data

Results flagged for a closer look

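Paxip1 in the Mll4-labelled library had log2 ratios to control on opposite sides of 0 in 2 classes. In granulocyte progenitor-like cells its log2 ratio was 0.43 (0.01 to 0.83, 63 against 261 UMIs), and in erythroid progenitor-like cells it was -0.51 (-0.74 to -0.28, 164 against 2439 UMIs). The levels were 30.4 against 22.6 CPM in the first and 23.6 against 33.5 CPM in the second. The classes were picked out because their intervals lay on opposite sides of 0, among 6 classes measured for Paxip1 there, and the difference between them was not tested. The lower bound in granulocyte progenitor-like cells was close to 0. With TMM factors the value there was 0.12 (-0.30 to 0.52), so that its interval spanned 0, and that in erythroid progenitor-like cells was -0.78 (-1.02 to -0.55).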

How the results depend on the processing

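Of 961 single values recomputed under the alternatives, 864 stayed within the interval of the main value and 95 moved outside it without reversing a called ratio. The other 2 changed the sign of a called ratio. Counting ratios that were not called as well, 110 values in 30 of 64 results had the other sign. Both changes of a called ratio were Pagr1a in HSC/MPP-like cells of the Mll4-labelled library, at -0.48 without doublet removal and -0.48 with hashtag 2 alone. Kmt2c in the Mll3-labelled library over all cells ranged from -1.25 (hashtag 1 alone) to -0.40 (hashtag 2 alone), with -0.55 for the mean share per cell. Kdm6a in the Mll4-labelled library ranged from -0.81 to -0.57 over all cells, and Kmt2d there was -0.24 for the mean share per cell.

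The number of members called changed as follows, with the share of all genes called under the same settings in parentheses. In the Mll3-labelled library over all cells it was 2 with the stricter filter (15.2%). It was 2 with hashtag 1 alone (18.5%) and 0 with hashtag 2 alone (11.1%). Class-matched it was 2 with hashtag 1 (13.9%) and 0 with hashtag 2 (10.4%). In B-cell progenitor-like cells it was 1 with hashtag 1 (18.4%). In the Mll3/4-labelled library over all cells it was 3 with hashtag 1 (60.5%). It was 2 with the looser and stricter filters, no doublet removal, reduced totals, the mean share per cell and TMM factors (57.1% to 62.5%). Class-matched it was 3 with thinned cells (51.8%). It was 2 with the looser and stricter filters and no doublet removal (49.6% to 51.5%). Leiden resolution 0.5, another seed and the mean share per cell also gave 2 class-matched (50.9% to 55.8%). In B-cell progenitor-like cells against the control it was 2 under the settings that gave 2 class-matched (43.0% to 51.5%) and among dividing cells (43.5%). It was 3 with thinned cells (48.5%) and 4 among non-dividing cells (51.8%). Against the Mll3-labelled library it was 1 with the stricter filter, no doublet removal, reduced totals, the mean share and thinned cells (43.2% to 51.3%). Either hashtag alone, dividing cells, non-dividing cells and TMM factors also gave 1 there (45.6% to 53.0%). In the Mll4-labelled library class-matched it was 0 with the looser filter (38.1%) and 2 with hashtag 2 (38.1%). In HSC/MPP-like cells it was 1 in the Mll3-labelled library without doublet removal, at Leiden resolutions 2 and 0.5, with either hashtag, a minimum of 100 counts or a pseudocount of 1 CPM. It was 1 in the Mll4-labelled library with the looser filter, no doublet removal, Leiden resolutions 2 and 0.5, thinned cells, hashtag 1 and a minimum of 100 counts.

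No paired analysis was possible because each group has 1 library. The alternative that counts unnamed clusters by their B-cell progenitor score was chosen after seeing the data and left the calls as they were. The cause of these changes was not tested. Pagr1a had few UMIs in every library, and the reason for this was not tested.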
